A study of Mus musculus with 444 samples.

Results

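Imprinted genes that control growth were followed through single epithelial cells of the mouse mammary gland. The set held 10 of the 25174 genes kept for analysis, namely H19, Igf2, Peg3, Plagl1, Ndn, Cdkn1c, Meg3, Igf2r, Sgce and Impact, each matched to its Entrez GeneID. They were measured in 323 of 444 cells, those with at least 100000 read pairs and 1500 detected genes. Every cell came from the mammary gland of female FVB/NJ mice, an inbred strain, and neither a treatment nor an engineered allele is given for either group. The retained cells were 171 of 221 at puberty (4 weeks in the column names of the count files, slightly older in the methods) and 152 of 223 in the adult (10 weeks). Cells were sorted, isolated one by one on the Fluidigm C1 microfluidic device and sequenced as single libraries. No animal, sort or capture run is named for any cell. Each stage was therefore 1 sample of many cells, no difference below has a replicate check, and no test was run.

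An imprinted gene is read from only one parental chromosome, and which one is fixed by methylation laid down in the egg or the sperm. Many imprinted genes act on growth of the fetus and its organs, and in the mouse most fall silent in many tissues after birth. Igf2 encodes a growth factor, and Igf2r encodes the receptor that takes it up for destruction in the lysosome. H19 is a long non-coding RNA beside Igf2 and a host of the microRNA miR-675, and Meg3 is a long non-coding RNA of the Dlk1 domain. Plagl1 (Zac1) and Peg3 encode zinc finger proteins, and Plagl1 can activate other imprinted genes. Cdkn1c encodes p57, an inhibitor of cyclin-dependent kinases, and Ndn encodes necdin, which restrains cell division. Sgce encodes epsilon-sarcoglycan of the dystrophin complex, and Impact encodes a protein that binds GCN1 and damps the GCN2 stress response.

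In the GRCm38 annotation (GENCODE vM21) a run of these genes lies on chromosome 7, with Peg3 at chr7:6703892-6730431 on the minus strand and Ndn at chr7:62346569-62350262 on the plus strand. At the far end of the same chromosome, on the minus strand, come H19 at chr7:142575529-142578143, Igf2 at chr7:142650766-142666816 and Cdkn1c at chr7:143458339-143461050. Plagl1 is at chr10:13060504-13131694 and Meg3 at chr12:109541001-109571726, both on the plus strand, and Igf2r (chr17:12682406-12769664) and Sgce (chr6:4674350-4747207) are on the minus strand. Exons of H19 overlap Mir675, those of Meg3 overlap Mir770 and Mir1906-1, and those of Igf2 overlap the antisense gene Igf2os. Whether counting used strand is not given in the sources used here, so reads of Igf2 and Igf2os cannot be told apart.

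The promoters of Peg3, Plagl1 and Meg3 are printed because these genes were detected together in some of the cells described below, and because Plagl1 is itself a transcription factor. Each line gives the 250 bases before the RefSeq start (GRCm38.p6), read 5′ to 3′ on the strand of the gene. They are chr7:6730420-6730669 (minus), chr10:13090582-13090831 (plus, inside the longer GENCODE gene) and chr12:109540746-109540995 (plus). Capitals mark GGGGCCCC, the published core of the PLAGL1 motif, and TGACGTCA, the cAMP response element, and both read the same on either strand.
Peg3: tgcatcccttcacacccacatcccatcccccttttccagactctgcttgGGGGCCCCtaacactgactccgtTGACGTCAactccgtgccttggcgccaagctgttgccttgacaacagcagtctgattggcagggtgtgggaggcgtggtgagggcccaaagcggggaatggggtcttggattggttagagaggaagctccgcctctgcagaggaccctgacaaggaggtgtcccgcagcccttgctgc
Plagl1: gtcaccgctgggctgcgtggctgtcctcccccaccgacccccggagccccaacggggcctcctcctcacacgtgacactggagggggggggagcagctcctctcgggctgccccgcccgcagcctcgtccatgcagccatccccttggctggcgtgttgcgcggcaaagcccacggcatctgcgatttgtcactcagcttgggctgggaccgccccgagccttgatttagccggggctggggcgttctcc
Meg3: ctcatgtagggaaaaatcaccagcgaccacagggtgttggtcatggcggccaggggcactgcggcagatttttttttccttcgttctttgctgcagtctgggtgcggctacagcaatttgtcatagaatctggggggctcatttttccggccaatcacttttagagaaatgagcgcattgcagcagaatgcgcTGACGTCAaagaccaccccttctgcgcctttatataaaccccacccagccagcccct
The Peg3 promoter held GGGGCCCC 201 bases and TGACGTCA 178 bases before the start. Meg3 held TGACGTCA 57 bases before its start, and Plagl1 held neither. Among all 32851 promoters of this length (27025 genes), 292 (0.889%) held the first motif and 508 (1.55%) the second. RefSeq promoter entries were matched for 6 of the 10 genes (10 entries), and none of the other entries, those of Igf2, Ndn and Igf2r and the second of Meg3, held either motif. A match of letters in this window is a description and says nothing about binding. CpG pairs in the 250 bases numbered 8 for Peg3, 19 for Plagl1 and 10 for this Meg3 start, against a median of 6 over all promoters.

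Cells were compared at 1 depth, with 100000 read pairs drawn from each cell, so that 1 read is 10 CPM, a count scaled to the library total, in a cell. Before drawing, median depth was 310759 read pairs at puberty (101709 to 1356703) and 332509 in the adult (101127 to 1054346). The drawn cells detected a median of 2805 and 2685 genes. The adult cells numbered 48 to 188 in their titles (107 retained) stood apart from the other 45, as 98.1% of them against 73.3% detected 3 or more of 10 basal markers and none fell in the mature luminal class. The labels give both sets the same source, so for these cells the stage and the set cannot be told apart.

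Some libraries also shared rarely detected genes. Of 5189 genes read in 2 to 15 cells, pairs of cells from different stages shared at most 27.7% (median 2.33%), whereas 68 of 26011 pairs within a stage shared 30% or more, up to 60.8%. This linked 7 pubertal cells in 2 groups and 38 adult cells in 5 groups, every one of the 38 numbered 48 to 188. No 2 cells had identical counts. The linked libraries carried several of the imprinted genes as groups. In 1 group of 11 adult cells Impact was read in 11 and Igf2r in 7, in a group of 10 Plagl1 was read in 8 and Peg3 in 5, and in another group of 11 Plagl1 and Cdkn1c were read in 9 each and Peg3 in 8. Results that rest on these libraries are given with and without them, over 164 pubertal and 114 adult cells, and the reason for the sharing was not tested.

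Impact was read in more than 4 in 10 cells of either stage, and every other member was read in fewer than 1 cell in 4. At puberty 90 of 171 cells (52.6%, 95% exact interval 44.9 to 60.3) had a read of Impact, and in the adult 66 of 152 (43.4%, 35.4 to 51.7). Cdkn1c followed at puberty with 37 cells (21.6%, 15.7 to 28.6), ahead of Meg3 and Igf2r with 31 each (18.1%, 12.7 to 24.7) and Peg3 with 25 (14.6%, 9.69 to 20.8). Ndn was read in 12 pubertal cells (7.02%), H19 and Sgce in 9 each (5.26%), Plagl1 in 8 (4.68%) and Igf2 in 2 (1.17%). The adult order was Igf2r in 28 cells (18.4%), Cdkn1c in 23 (15.1%), Peg3 in 22 (14.5%), Plagl1 in 21 (13.8%), Meg3 in 19 (12.5%), Ndn in 7 (4.61%), Sgce in 2 (1.32%) and H19 and Igf2 in 1 each (0.658%). Intervals here and below cover counting error only, because the libraries carry no molecular identifiers and cells of a stage share their animals.

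Per length of transcript, the scale on which different genes can be compared, Impact again had the highest level, with a mean of 90.6 RPKM (reads per kilobase of transcript, scaled to the library total) over pubertal cells and 39.5 over adult cells. At puberty Cdkn1c (32.4), Sgce (13.4), H19 (10.4) and Plagl1 (9.22) followed. Ndn (3.29), Peg3 (3.28), Meg3 (3.21), Igf2r (1.5) and Igf2 (0.511) were lower. In the adult the mean level ran from Plagl1 (14.6) over Cdkn1c (7.05), Ndn (6.05), Igf2r (3.70), Peg3 (1.99), Igf2 (0.668), Meg3 (0.647) and Sgce (0.316) to H19 (0.126). The SD over cells exceeded the mean for each gene in both stages, for example 214 RPKM for pubertal Impact and 124 for adult Plagl1. This SD is the spread between cells and not the error of a mean. The orders are descriptions, and no difference between neighbours was tested. Most cells held no read of a gene while a few held many.

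**Figure D1:**
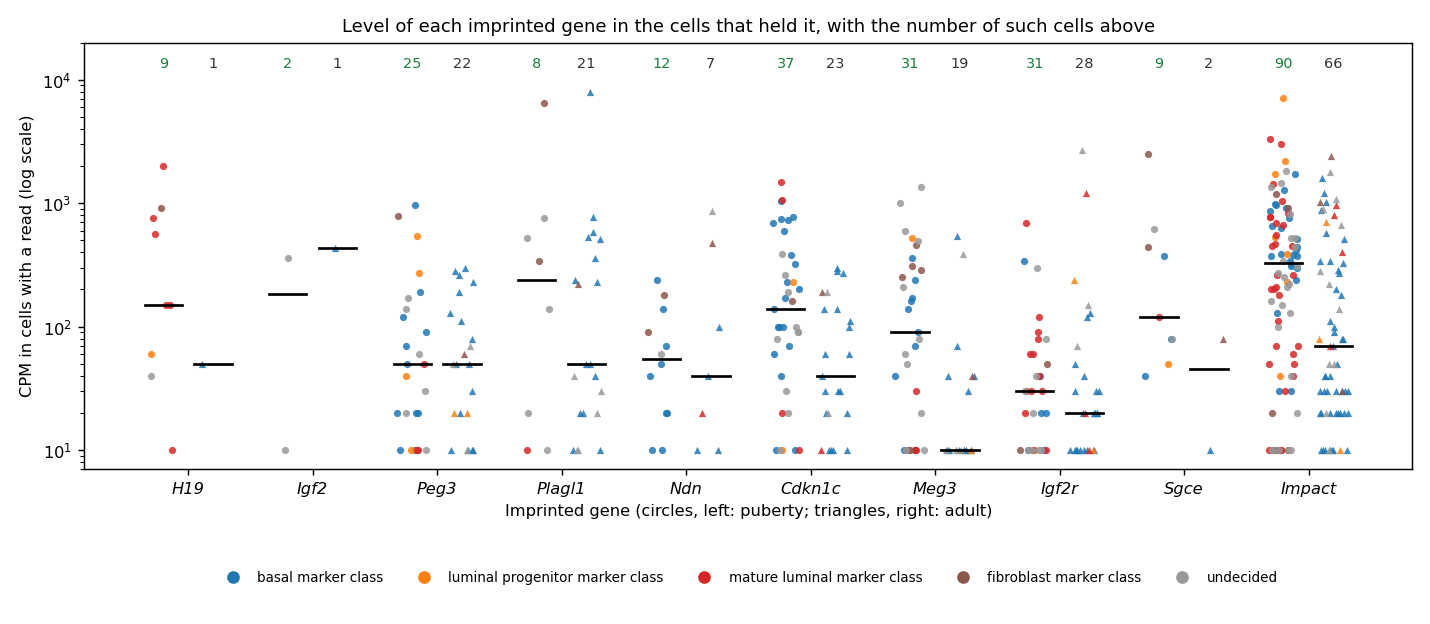
Level of each imprinted gene (CPM of the drawn cell, log axis) in the cells with at least 1 read, 1 point per cell, by stage. Impact spans from 1 read to 711 reads (10 to 7110 CPM) in 90 pubertal cells, whereas H19 and Sgce are read in 9 pubertal cells each and in 1 and 2 adult cells.

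Most of the set had more reads at puberty. Among all genes with at least 20 CPM in a stage, 19.9% were 2-fold or more higher at puberty and 14.9% in the adult. Of the 10 imprinted genes 8 reached 20 CPM, and 5 of these were 2-fold higher at puberty (H19, Sgce, Meg3, Cdkn1c and Impact) and 1 in the adult (Igf2r). The median log2 ratio (puberty to adult) of these 8 was 1.70, against 0.09 over all 7814 genes. Of the 8 genes, Impact and Plagl1 reached 20 CPM in both stages. H19, Sgce, Cdkn1c, Meg3 and Peg3 reached it only through puberty and Igf2r only through the adult, a filter that favours genes that differ, so the count describes the set without supporting a difference.

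Of the non-coding RNAs, H19 had 27.1 CPM at puberty (24.7 to 29.7) and 0.329 in the adult (0.107 to 0.768), an 82.3-fold ratio. The 9 pubertal cells held from 1 to 199 reads with a median of 15, and the only adult cell held 5. A single pubertal cell carried 43.0% of the stage's reads, and the only adult cell with H19 was a linked library. Most pubertal cells with H19 fell in 1 marker class, described below, that held few adult cells. Meg3 had 41.4 CPM at puberty (38.4 to 44.6) and 8.36 in the adult (6.97 to 9.94), 4.96-fold, with 1 to 135 reads per detecting cell (median 9) against 1 to 54 (median 1). Both sets of Meg3 cells overlapped from 1 read upward, and the pubertal cells reached further. Against adult cells 48 to 188 the log2 ratio of Meg3 was 4.04 and against the other adult cells 0.90, so its size depended on which adult cells were used.

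Cdkn1c, the cell cycle inhibitor, had 62.9 CPM at puberty (59.2 to 66.7) and 13.7 in the adult (11.9 to 15.7), 4.59-fold (log2 2.20, 1.98 to 2.42). Its 37 pubertal cells held 1 to 149 reads with a median of 14, and its 23 adult cells 1 to 30 with a median of 4. No single cell held more than 14.4% of a stage's Cdkn1c reads, which made it, with Impact, the least dependent on 1 cell. Without the linked libraries the log2 ratio was 2.71. Ndn, whose product also restrains cell division, had 5.44 CPM at puberty and 10.0 in the adult, under the 20 CPM minimum. Of its adult reads 56.6% came from 1 cell, and its log2 ratio was 1.96 against adult cells 48 to 188 and -2.48 against the others.

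In the growth factor axis Igf2 was close to absent. One pubertal cell held 36 reads, another held 1 and an adult cell held 43, for 2.16 and 2.83 CPM. Igf2r was 2.47-fold higher in the adult (33.0 CPM, 30.2 to 36.0) than at puberty (13.4, 11.7 to 15.2), although it was read in 18.4% and 18.1% of cells. An adult cell with 270 reads held 53.8% of the adult Igf2r reads and a pubertal cell with 69 held 30.1%. Without these 2 cells the log2 ratio moved from -1.30 to -0.71, which no longer reached 2-fold.

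The values of the zinc finger genes depended on which cells were used. Peg3 had 21.7 CPM at puberty and 13.2 in the adult (log2 0.72, 0.47 to 0.98), with medians of 5 reads in detecting cells of either stage, and it was read in 14.6% and 14.5% of cells. Of its 22 adult cells 13 were linked libraries. Over unlinked cells Peg3 had 20.4 CPM at puberty against 2.28 in adults, for a log2 ratio of 3.16 (2.59 to 3.8). Plagl1 had 48.5 CPM at puberty and 77.0 in the adult, but 1 pubertal cell with 649 reads held 78.3% and 1 adult cell with 795 reads held 67.9% of them. The other 7 pubertal cells held up to 76 reads and the other 20 adult cells up to 78. All 21 adult cells with Plagl1 were numbered 48 to 188, 17 of them linked, and 0 of the other 45 adult cells had a read, which allows a share of up to 6.67% (3 of 45 cells, the limit used here for every count of 0).

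Sgce was read in 9 pubertal cells with 4 to 249 reads (median 12) and in 2 adult cells with 1 and 8, for 25.1 and 0.592 CPM (42.4-fold), and 1 pubertal cell held 58.0% of its reads. Without linked libraries 1 adult read of Sgce was left, and the log2 ratio was 8.22 (5.73 to 13.5). Without the cell with most reads in each stage, H19 and Sgce no longer reached 20 CPM, with log2 ratios of 6.29 and 7.32. Impact had 311 CPM at puberty (303 to 320) and 136 in the adult (130 to 142), 2.29-fold. Its pubertal cells held a median of 33 reads (1 to 711) and its adult cells 7 (1 to 241), so the level within detecting cells differed more between stages than the share of cells did. The log2 ratio of Impact was 1.20, and 1.26 without linked libraries, 1.41 against adult cells 48 to 188 and 0.80 (1.74-fold) against the other adult cells, where it did not reach 2-fold.

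Cells were placed in marker classes by lists of 10 genes each for basal, luminal progenitor, mature luminal and fibroblast cells. A class needed 3 or more detected markers and a lead of 2 over the next list, so a class is a range of a score and not a cell type. At puberty the basal class held 47 cells (27.5%), the mature luminal class 67 (39.2%), the luminal progenitor class 17, the fibroblast class 5 and 35 stayed undecided, with 11 basal and 11 mature luminal cells 1 marker from the limit. In the adult the basal class held 95 cells (62.5%, 15 of them 1 marker from the limit), mature luminal 12, luminal progenitor 11, fibroblast 4 and 30 were undecided.

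At puberty Cdkn1c, Peg3, Meg3 and Ndn had more reads in the basal than in the mature luminal class, and H19 had fewer. In the luminal progenitor class Peg3 (50.6 CPM, 4 of 17 cells) and Meg3 (30.6 CPM, all in 1 cell) were at or above their basal levels of 33.2 and 27.4 CPM, and Cdkn1c (14.1 CPM) and Ndn (no read) were below theirs. Cdkn1c was read in 20 of 47 basal cells (42.6%, 28.3 to 57.8) and 4 of 67 mature luminal cells (5.97%, 1.65 to 14.6), with 138 and 38.7 CPM (3.58-fold). Of its 259 mature luminal reads 149 lay in cell 180 and 107 in cell 8, which had 3 mature luminal and 4 endothelial markers. With a lead of 3 markers for a class, the log2 ratio of Cdkn1c moved from 1.84 to 9.88. Peg3 was read in 11 and 3 cells (33.2 and 1.04 CPM, 31.8-fold), with 1 basal cell holding 61.5% of the basal reads. Meg3 was read in 10 and 4 cells (27.4 and 0.896 CPM, 30.6-fold). The shares of cells with Meg3 were 21.3% (10.7 to 35.7) and 5.97% (1.65 to 14.6), with intervals that overlapped. Ndn was read in 9 of 47 basal cells (19.1%) and 0 of 67 mature luminal cells. Its basal level of 12.8 CPM, below the 20 CPM minimum, was 28.5-fold higher with the 0 mature luminal reads set to a floor of 3. The exact interval of this log2 ratio, which covers the counting of reads only, started at 4.49.

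H19 went the other way. It was read in 0 of 47 basal cells, which allows a share of up to 6.38%, and in 6 of 67 mature luminal cells (8.96%, 3.36 to 18.5) at 54.0 CPM. With the 0 basal reads set to a floor of 3, this was 84.6-fold higher than in the basal class. The exact interval of the log2 ratio, basal over mature luminal, ended at -6.1, but it covers the counting of reads only. The limits of the 2 shares of cells, up to 6.38% and 3.36 to 18.5%, overlapped. These 6 cells held 1 to 199 reads, with 55.0% in 1 cell. Igf2r was read in 6 basal and 13 mature luminal cells (9.36 and 19.0 CPM). Impact had 285 and 243 CPM in these classes (25 of 47 and 31 of 67 cells) and 719 CPM in the luminal progenitor class, where 58.1% of its reads came from 1 of 7 cells. Of all genes at 20 CPM 24.9% were 2-fold higher in the basal class and 25.7% in the mature luminal class, and of the 5 imprinted genes that reached it 3 were higher in the basal class and 1 in the mature luminal class. Without linked libraries these counts were again 3 and 1, and without the cell with most reads Peg3 and Meg3 no longer reached 20 CPM in the basal class, with log2 ratios of 5.42 and 5.47. H19, Peg3 and Meg3 reached 20 CPM in only one of the 2 classes, so these counts too are descriptions.

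The adult classes were too unequal for a like comparison, with 95 basal and 12 mature luminal cells. Background shares were 43.4% and 28.3%, and of 3 imprinted genes at 20 CPM 1 was 2-fold higher in the basal class (Plagl1) and 1 in the mature luminal class (Igf2r). Plagl1 had 120 CPM in 15 of 95 basal cells and no read in 12 mature luminal cells, which allows a share of up to 25.0%. Igf2r had 6.42 CPM in 20 basal cells and 103 in 3 mature luminal cells, of which 1 cell held 97.6%. Without the cell with most reads in each class, the log2 ratio of Igf2r, basal over mature luminal, turned from -4.01 to 1.02. Cdkn1c was read in 19 of 95 basal cells (20.0%) and 1 of 12 mature luminal cells.

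Within the basal class the stages could be set side by side. Cdkn1c had 138 CPM at puberty and 17.6 in the adult (7.87-fold, read in 42.6% and 20.0% of cells), Impact 285 and 93.6 (3.04-fold) and Meg3 27.4 and 8.42 (3.26-fold). Of the 80 adult basal reads of Meg3, 54 lay in cell 206, which also had 8 endothelial and 4 pericyte markers. Peg3 had 33.2 and 18.6 CPM, or 2.42 in the adult basal cells that were not linked. Plagl1 had no read in the 47 pubertal basal cells, which allows up to 6.38%, and 15 adult basal cells had one, of which 4 were not linked. One cell held 69.9% of these adult reads. H19 had 0 reads in pubertal basal cells and 5 in the adult ones, all in 1 linked library. Of its 9 pubertal cells 6 were in the mature luminal class, which held 67 pubertal and 12 adult cells. For H19 the stage and the share of this class thus cannot be told apart.

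**Figure D2:**
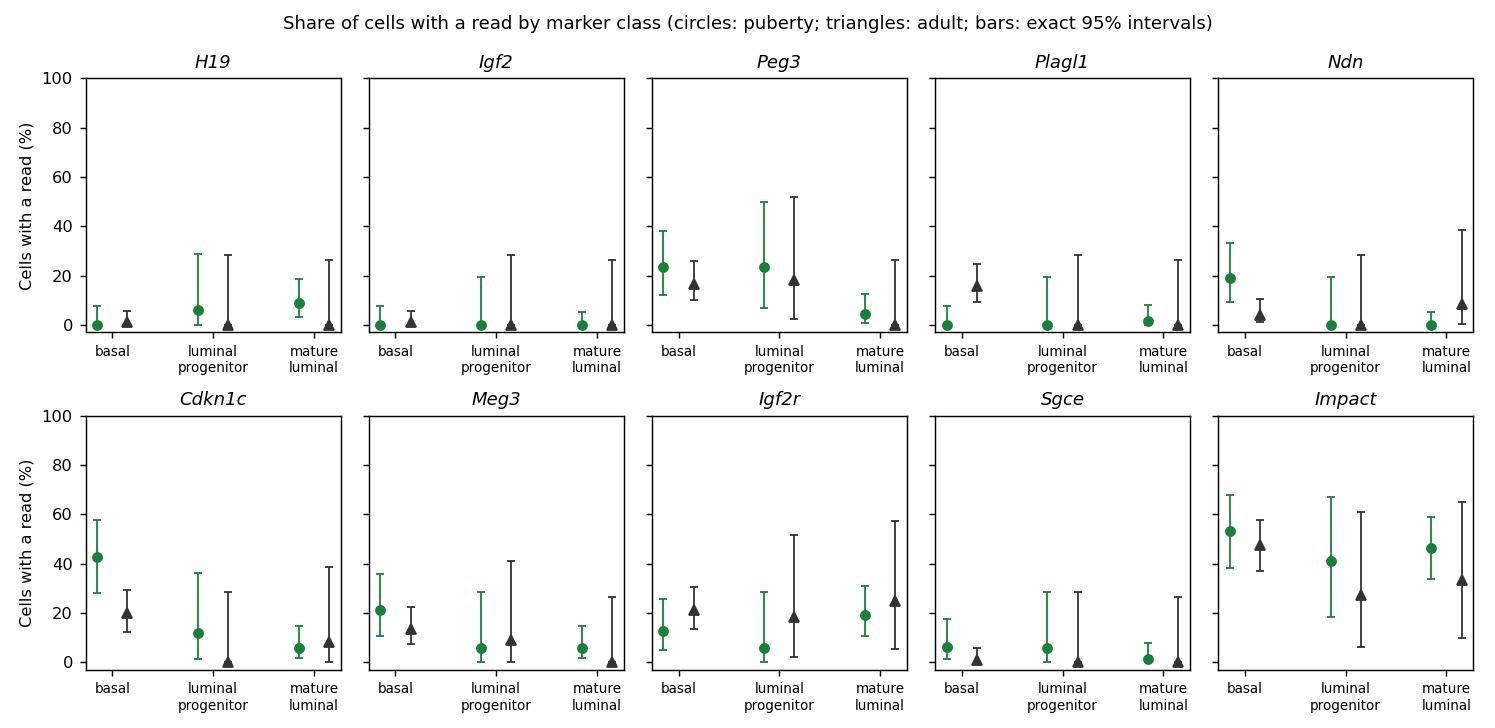
Percent of cells with at least 1 read of each imprinted gene in the basal, luminal progenitor and mature luminal marker classes of each stage, with exact 95% intervals. Pubertal Cdkn1c stands at 42.6% in the basal class and 5.97% in the mature luminal class, and H19 at 0% and 8.96%.

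Several of these genes were read more often in cells with fibroblast markers. The same shares were not computed over all genes. Cells with 3 or more such markers also detected more genes at puberty (median 2990 against 2761), but not in the adult (2595 against 2686). Of 10 fibroblast markers, including collagens, Dcn and Pdgfra, 27 pubertal and 23 adult cells had 3 or more. Few of them lacked epithelial markers, as 22 of 27 and 20 of 23 also detected 3 or more of 8 luminal keratin and junction genes and 19 and 20 detected 3 or more basal markers. The summed level of the list ran from 0 to 40750 CPM over all pubertal cells and 0 to 31490 over adult cells, and no marker of it was at 0 in either stage. The flow gates of the study take CD24+ cells that lack CD31, CD45 and TER119, but the labels of these cells name no gate. The part of these cells in the results was followed by leaving them out.

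At puberty Meg3 was read in 19 of the 27 cells with fibroblast markers (70.4%, 49.8 to 86.2) and 12 of the other 144 (8.33%, 4.38 to 14.1), with 184 and 14.7 CPM. Sgce was read in 6 (22.2%) and 3 (2.08%), with 150 and 1.74 CPM, and Plagl1 in 5 (18.5%) and 3 (2.08%), with 301 and 1.18 CPM. Most reads of Sgce and Plagl1 at puberty therefore lay in these 27 cells. Ndn was read in 5 (18.5%) and 7 (4.86%) cells, Cdkn1c in 10 (37.0%) and 27 (18.8%) and Igf2r in 10 (37.0%) and 21 (14.6%). The level of Cdkn1c was 45.6 against 66.1 CPM, Impact was read in 59.3% and 51.4% of cells, and Peg3 in 14.8% and 14.6%. H19 was read in 1 and 8 cells.

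In the basal class at puberty, leaving out the cells with fibroblast markers kept Cdkn1c at 16 of 37 cells (43.2%) and Peg3 at 10 (27.0%), and Meg3 was then read in 4 (10.8%) with 13.5 CPM in place of 27.4. Across the stages without these cells, H19, Cdkn1c and Impact reached 20 CPM and were 2-fold higher at puberty. Meg3 and Sgce then had under 20 CPM in both stages and so were not counted, with log2 ratios of 1.31 and 4.49. In the adult Plagl1 was read in 10 of 23 cells with fibroblast markers and 11 of the other 129, Cdkn1c in 10 and 13, and Peg3 in 8 and 14. Of the 23 cells 9 were linked libraries. Among adult cells that were not linked the counts were 2 of 14 against 2 of 100 for Plagl1, 4 of 14 against 7 of 100 for Cdkn1c and 1 of 14 against 8 of 100 for Peg3. Without linked libraries the share of cells with Peg3 was thus no higher in cells with fibroblast markers. Plagl1 was left with 2 cells on either side, too few to compare.

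**Figure D3:**
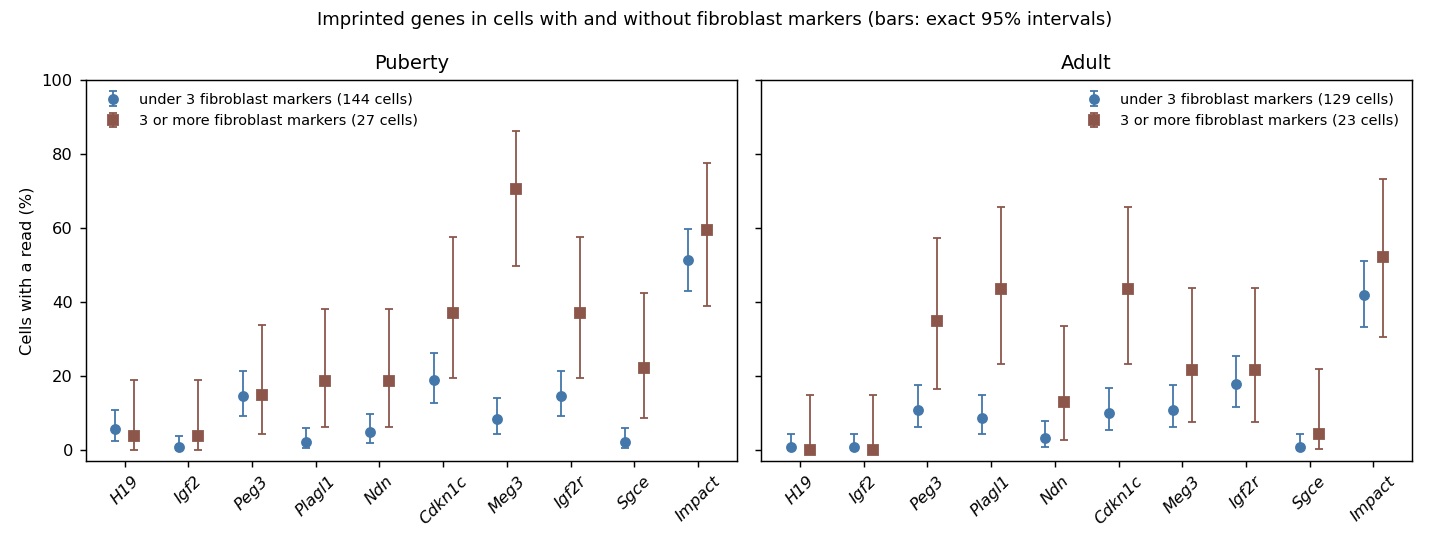
Percent of cells with a read of each imprinted gene among cells with 3 or more and under 3 of 10 fibroblast markers, by stage, with exact 95% intervals. Meg3 at puberty is the widest gap, 70.4% of 27 cells against 8.33% of 144.

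Markers of other cell types were rarer. At least 3 endothelial markers (of 8) were found in 8 pubertal and 3 adult cells, pericyte markers (of 6) in 5 and 2, Schwann markers (of 6) in 3 and 1 and immune markers (of 8) in 0 and 1. Of 127 adult Meg3 reads, 54 lay in cell 206 with 8 endothelial markers and 39 in cell 23 with 3. The adult cells next in Meg3 reads, 116 and 180, held 7 and 4 and had 0 endothelial markers. Of the 4 pubertal cells with most Cdkn1c reads, 8 and 63 (107 and 77 reads) had 4 endothelial markers each. Cells 180 and 37 (149 and 104 reads) had 0. Beyond these cells, the part of such cell types in the levels of the imprinted genes was not tested.

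Although Cdkn1c encodes an inhibitor of the cell cycle, its reads were not limited to cells without cycle genes. At puberty 17 of 56 cells (30.4%, 18.8 to 44.1) with 3 or more of 10 cycle genes had a read of Cdkn1c, against 20 of the other 115 (17.4%, 11.0 to 25.6). The level was 69.5 and 59.7 CPM. Within the pubertal basal class the counts were 9 of 17 and 11 of 30 cells, with 102 and 159 CPM, and in the adult 5 of 30 and 18 of 122. Impact was read in 39 of 56 (69.6%, 55.9 to 81.2) and 51 of 115 (44.3%, 35.1 to 53.9) pubertal cells, but its CPM went the other way (250 and 341), so no order is read from the shares. Cells with cycle genes also detected more genes, a median of 3374 against 2573 at puberty.

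A typical cell had a read of 1 member. Pubertal cells had 0 to 5 (median 1, quartiles 1 and 2, mean 1.49 with SD 1.29) and adult cells 0 to 6 (median 1, quartiles 0 and 2, mean 1.25 with SD 1.15). No member was read in 41 pubertal and 45 adult cells, and 3 or more were read in 34 (19.9%, 14.2 to 26.7) and 17 (11.2%, 6.65 to 17.3). Adult cells that were not linked had 3 or more in 6 of 114 (5.26%, 1.96 to 11.1), and the linked ones in 11 of 38. At puberty 17 of 27 cells with fibroblast markers had 3 or more (63.0%, 42.4 to 80.6), against 17 of 144 of the others (11.8%, 7.03 to 18.2). These 27 cells also detected more genes (median 2990 against 2761), and no like count was made for other sets of genes. The median was 2 in the pubertal basal class and 1 in the mature luminal class.

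The richest cells were not alike. Adult cell 180, a linked library of the basal class, had 6 members with 23 reads of Plagl1, 5 of Peg3, 4 of Meg3, 2 of Igf2r and 1 each of Cdkn1c and Impact. Pubertal cell 156, of the fibroblast class, had 91 reads of H19, 79 of Peg3, 44 of Sgce, 31 of Meg3 and 16 of Cdkn1c. Pubertal cell 118 had 36 reads of Igf2, 27 of Impact, 14 of Plagl1 and 1 each of Peg3 and Meg3. The median number of detected genes was 2642 in pubertal cells without a member and 2844 in those with 4 or more, and 2264 and 2867 in the adult.

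**Figure D4:**
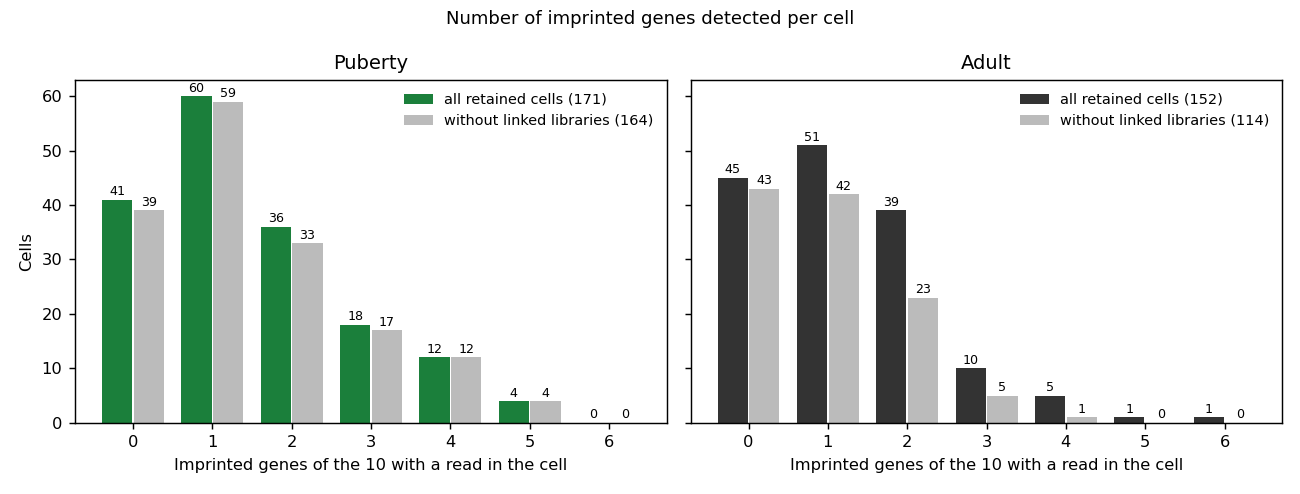
Number of imprinted genes read per cell (of 10), as counts of cells of each stage, for all retained cells and without linked libraries. The median is 1 in both stages, and 3 or more are read in 19.9% of pubertal cells, 11.2% of adult cells and 5.26% of adult cells that are not linked.

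Of the 45 pairs, 15 in each stage had both genes in 10 or more cells and so could reach 10 shared cells. A pair was counted where at least 10 cells had both genes and their number was 1.5 times or more that of independent detection. At puberty 1 of these 15 pairs was counted (6.67%), and of all pairs of genes read in 10 to 90 cells 3.2% were. Without linked libraries it was again 1 pair, with a background of 2.86%. In the adult 2 of 15 pairs were counted (13.3%), against 5.56% of all pairs of genes read in 10 to 66 cells. Without linked libraries 0 of the 6 adult pairs that could be were counted (background 3.12%). Each background took all pairs of genes in a range of cell numbers and was not matched to the frequency of the members.

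The pubertal pair was Cdkn1c and Meg3, read together in 13 cells where 6.71 would follow from independent detection (1.94 times). Meg3 was read in 35.1% of cells with Cdkn1c (20.2 to 52.5) and in 13.4% of the others (8.16 to 20.4). Of the 13 cells 8 had 3 or more fibroblast markers and none was linked. In smaller numbers Meg3 was also read in 7 of the 8 cells with Plagl1 (4.83 times independent detection), 7 of the 9 with Sgce (4.29 times) and 7 of the 12 with Ndn (3.22 times). Of these shared cells 5, 6 and 5 had fibroblast markers. Ndn and Cdkn1c shared 7 cells (2.70 times), of which 2 had fibroblast markers.

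The adult pairs were Peg3 with Plagl1 (13 cells where independent detection gives 3.04, 4.28 times) and Plagl1 with Cdkn1c (10 cells, 3.15 times). Plagl1 was read in 59.1% of adult cells with Peg3 and 6.15% of those without. Of the 13 cells 12 were linked libraries, and of the 10 cells 8 were. Without linked libraries Peg3 and Plagl1 shared 1 cell. At puberty Peg3 and Plagl1 were read in 25 and 8 cells, and this pair did not reach 10 cells.

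The neighbours H19 and Igf2 shared no cell in either stage, but Igf2 was read in only 2 pubertal cells and 1 adult cell, thinned or not, so their sharing could not be measured. Impact, the most widely read member, was shared with other genes about as often as independent detection gives, for example 1.03 times for Cdkn1c, 1.06 for Peg3 and 1.16 for Igf2r at puberty. In the adult Impact and Igf2r shared 16 cells (1.32 times), 10 of them linked. Within adult cells 48 to 188 this pair was counted (14 cells), as were Impact and Meg3 in the adult without a gene minimum (14 cells).

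**Figure D5:**
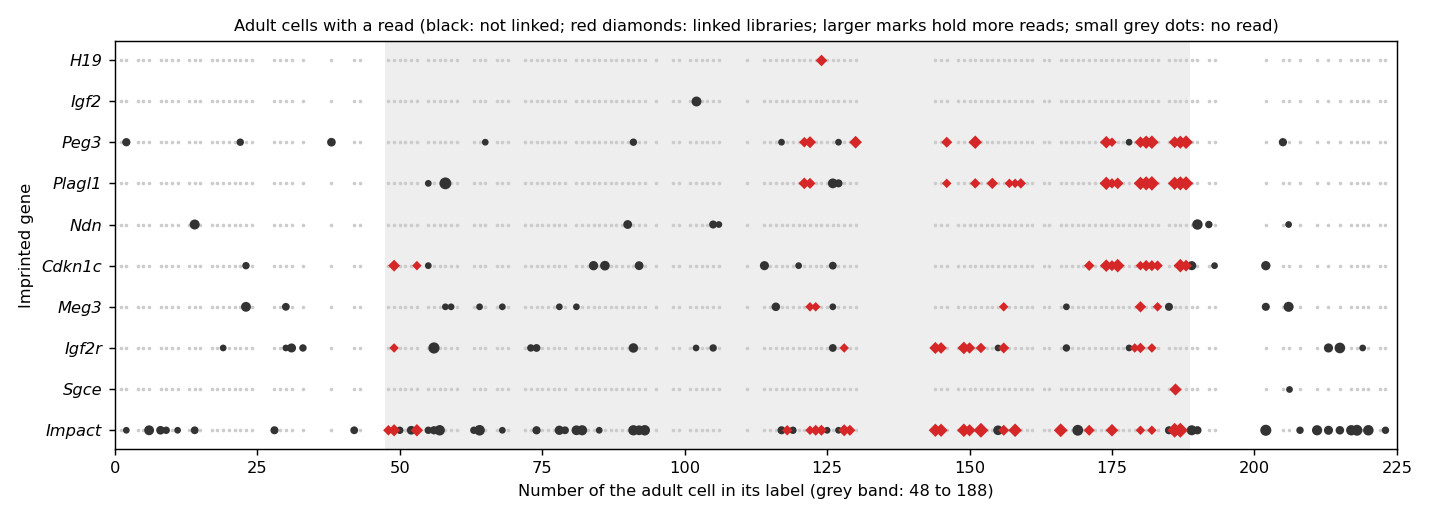
Reads of the imprinted genes in adult cells by the number in their title, with linked libraries marked. Plagl1 is read in 21 cells, all numbered 48 to 188 and 17 of them linked, and in none of the other 45 retained adult cells.

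Further imprinted genes and known partners of the set were read from 2 lists. Of 30 other imprinted genes 25 had a read and 10 reached 20 CPM, and 2 of these 10 were 2-fold higher at puberty and 0 in the adult, with a median log2 ratio of 0.30. These shares, 20.0% and 0%, stand beside 19.9% and 14.9% of all genes, so the first is at the background. The 2 genes were Mest, which encodes an enzyme of the hydrolase family (87.5 against 8.42 CPM, 10.4-fold, 26 pubertal and 8 adult cells), and Grb10, an adaptor that restrains insulin and IGF receptors (63.5 against 8.88 CPM, 7.14-fold, 41 and 7 cells). A single pubertal cell held at most 21.9% and 10.1% of their pubertal reads, and a single adult cell 49.2% and 51.1% of their adult reads. Both reached 20 CPM only through puberty, so these calls too are descriptions. Without linked libraries 2 were higher at puberty and 1 in the adult.

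Of 26 partners, among them IGF receptors and binding proteins, other p57-family inhibitors and the GCN2 pathway, 20 reached 20 CPM, 3 were 2-fold higher at puberty and 2 in the adult, with a median log2 ratio of -0.25. These shares, 15.0% and 10.0%, were below the 19.9% and 14.9% of all genes, and the genes are named as values only. Higher at puberty were Gcn1, which activates GCN2 and binds Impact (32.0 against 7.37 CPM, 4.35-fold), Plagl2, a relative of Plagl1 (21.3 against 6.45 CPM, 3.30-fold, with 71.4% of pubertal reads in 1 cell), and Cdkn1b, which encodes p27 (29.7 against 12.2 CPM, 2.44-fold, 74 and 42 cells). Higher in the adult were the growth factor Igf1 (20.8 against 0.760 CPM, in 5 adult cells and 1 pubertal cell, 62.3% of adult reads in 1 cell) and Irs1, the substrate of the insulin and IGF1 receptors (52.0 against 14.0 CPM, 3.72-fold). The 3 genes higher at puberty reached 20 CPM only in that stage, and the 2 higher in the adult only there, so these calls are descriptions. Without linked libraries 5 were higher at puberty and 2 in the adult.

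For the members read in 10% or more of the cells, the most similar patterns among 9805 genes were found by Pearson's r of log2(CPM + 10) over the 323 cells, as a description, since cells share their animals, depth and classes. Meg3 was closest to Calcrl (r = 0.52), a receptor of vessels and stroma, Tmem100 (0.51) and Aspn (0.50), a matrix protein, and r was 0.52, 0.52 and 0.56 without linked libraries. By stage these r were 0.46, 0.59 and 0.54 at puberty and 0.68, 0.19 and 0.31 in the adult. Cdkn1c was closest to Snai2 (0.43), a transcription factor of basal cells, Vcan (0.42), a matrix proteoglycan, and Nrep (0.42), with 0.47, 0.47 and 0.45 without linked libraries. By stage these r were 0.57, 0.51 and 0.50 at puberty and 0.11, 0.22 and 0.20 in the adult. Peg3 was closest to Zdbf2 (0.43), itself imprinted, and Gjc1 (0.40), a connexin, and without linked libraries r was -0.01 and 0.18, with 0.00 and 0.17 at puberty and 0.69 and 0.68 in the adult. No gene reached 0.40 for Igf2r or Impact, and the other members were read in under 10% of cells.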

How the data were processed

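The deposited values are whole-number counts of read pairs per gene, raw and unfiltered, 1 table per cell. The authors mapped read pairs to mm10 (Subread) and counted them per gene (featureCounts), using Rsubread's own RefSeq annotation. Tool versions and the use of strand are not given in the sources used here, so counts of overlapping and antisense genes are uncertain. The combined table held the same values and was not used, and 0 columns of per-cell values were left without a cell.

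Of 27179 identifiers 25275 matched RefSeq GRCm38.p6. The unmatched ones held 1.84% of reads and were left out, as were 15 mitochondrial and 86 ribosomal protein genes (16.5% of reads), which left 25174 genes. Retained cells, those with 1500 detected genes and 100000 read pairs or more, were thinned to 100000 read pairs (seed 1). Doublets were not called. Libraries without molecular identifiers count amplified copies separately.

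Shares carry exact Clopper-Pearson intervals, sums exact Poisson intervals and ratios exact conditional binomial intervals, all at 95%. For a share of 0 the limit given is 3 cells of the total, slightly under the exact bound. A side without reads was set to a floor of 3 reads over the group. Past the fold means 2-fold among genes with 20 CPM in 1 group, and no prior was added. The scripts were tested on simulated data. Python 3.11.15, numpy 2.4.6, pandas 2.3.3, scipy 1.17.1 and, for TMM factors, R 4.3.3 with edgeR 4.0.16 were used.

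The 10 genes, the gene and marker lists and the tests were chosen with earlier results of these data known. Every member is named, along with genes of the 2 lists past 2-fold and genes with r of at least 0.4. Leaving out linked libraries was added after seeing the data.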

Additional observations from a re-analysis of the deposited data

How the results depend on the processing

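Of 84 summary values recomputed under the alternatives, 59 stayed near the reported ones and 25 moved, and of 265 values of single genes 156 stayed, 108 moved and 1 reversed. Signs of the stage ratio were the same under all 10 alternatives for H19, Peg3, Cdkn1c, Meg3, Igf2r, Sgce and Impact, and changed for Igf2, Plagl1 and Ndn. For the stages (5 members 2-fold higher at puberty, 1 in the adult), leaving out the cell with most reads of the gene left 3 higher at puberty (Cdkn1c, Meg3, Impact), and the adult call passed from Igf2r to Plagl1 (log2 -1.23). H19 and Sgce then lay under 20 CPM with log2 ratios of 6.29 and 7.32. Leaving out cells with fibroblast markers left 3 (H19, Cdkn1c, Impact) with 2 in the adult (Plagl1, Igf2r), as Meg3 (1.31) and Sgce (4.49) lay under 20 CPM. The adult number was 0 with a prior of 10 CPM, 2 against adult cells 48 to 188 (Plagl1, Igf2r) and 2 against the other adult cells (Ndn, Igf2r), where the 5 genes higher at puberty were H19, Peg3, Plagl1, Cdkn1c and Sgce, without Meg3 (0.90) and Impact (0.80). For the pubertal classes (3 basal, 1 mature luminal), 1 stayed in the basal class without the top cell (Cdkn1c), as Peg3 and Meg3 lay under 20 CPM, and 2 were higher in the mature luminal class (H19, Igf2r) with at least 200000 read pairs and 2500 genes and with a lead of 3 markers. For the adult classes (1 and 1), 3 were higher in the basal class with unthinned counts (Peg3, Plagl1, Cdkn1c). The mature luminal number was 0 without the top cell, where Igf2r reversed to a log2 ratio of 1.02, and 2 (Igf2r, Impact) with the other adult cells, without a gene minimum, without cells with fibroblast markers and without linked libraries. With adult cells 48 to 188 (76 and 0 cells) and under the stricter filter (68 and 9) no adult class ratio could be given. Co-detected pairs at puberty (1) were 2 with unthinned counts and 0 under the stricter filter, with 5 reads for detection and without cells with fibroblast markers. Adult pairs (2) were 4 with unthinned counts, 1 under the stricter filter and 3 in adult cells 48 to 188, with Igf2r and Impact added. Without a gene minimum, Meg3 with Impact stood in place of Plagl1 with Cdkn1c. Adult pairs were 0 in the other adult cells, with 5 reads for detection, without cells with fibroblast markers and without linked libraries. The median number of members per cell kept to within the spread over cells. The cause of these shifts was not tested beyond the fewer cells or reads each setting uses. Igf2 was read in 2 pubertal cells and 1 adult cell with thinned and unthinned counts alike.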
